A study of Mus musculus with 23 samples.

Results

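The 55 RNAs described here were 20 box H/ACA small nucleolar RNAs (symbols starting with Snora), 31 box C/D small nucleolar RNAs (Snord), 3 small Cajal body RNAs (Scarna) and Terc, the RNA component of telomerase, out of 19938 genes measured. They were chosen by symbol from array probe clusters that name a single gene, and a gene with several clusters was represented by the one whose average signal across the arrays was highest. Only that mean entered the choice of cluster. The set itself was chosen with earlier results of these data known, so its shares against all genes carry no independent weight. Of the 55 members 6 had more than 1 cluster, and for 3 of these (Scarna17, Snora30 and Snord118) the clusters held equal values in all 23 arrays. Another 18 such symbols appeared only in clusters naming several genes and were not analysed here. RefSeq lists 143 mouse genes with symbols of these kinds.

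The 23 arrays came from cells sorted by flow cytometry out of tumours grown from Py2T, a murine breast cancer cell line, in the mammary fat pad of female FVB/N mice. All tumours shared that single cell line. Mice received nintedanib, an inhibitor of the receptors for vascular endothelial, fibroblast and platelet-derived growth factors, at 50 mg/kg for 7 days (short-term) or 21 days (long-term), or were left untreated until their tumours matched the long-term ones in size. Tumour cells were represented by 3 untreated, 4 short-term and 5 long-term arrays, and endothelial cells by 3, 3 and 5. The size match named is with the long-term tumours. Between short-term and untreated cells, drug and tumour size or growth time therefore cannot be told apart. The labels call the arrays of a group biological replicates. They give no age of the mice.

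All values were log2 signals after robust multi-array averaging (RMA), which gives every array nearly the same distribution, so each difference is relative to the other RNAs of the array. Arrays differed little in their overall level, with array medians between 4.40 and 4.55. All 14 endothelial markers were higher in untreated endothelial than in untreated tumour cells, with a median difference of 5.99 log2 units. The mean over 9 epithelial markers lay between 6.70 and 7.39 in the tumour cell arrays. It lay between 5.54 and 6.73 in the endothelial arrays other than long-term replicate 4, where it was 7.86. The mean over 12 macrophage markers was 7.77 in untreated endothelial replicate 1, and 7.85 and 7.06 in long-term endothelial replicates 3 and 4, against 4.36 to 5.20 in tumour cells. In sorted cell populations, fewer cells of a kind and less RNA per cell cannot be told apart.

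Box C/D RNAs guide ribose methylation and box H/ACA RNAs guide the conversion of uridine to pseudouridine in ribosomal RNA, and a few, such as Snora73a, Snora73b and Snord118, act in the cleavage of the ribosomal precursor instead. Small Cajal body RNAs direct the same modifications on spliceosomal RNAs, and Terc, the template of telomerase, carries an H/ACA domain bound by the same core proteins. Most of these RNAs are cut from introns of host genes, which include ribosomal protein genes, translation factor genes and non-coding Snhg genes, many of which belong to the terminal oligopyrimidine class and start at a run of pyrimidines. Snord118 and Terc are transcribed from their own promoters.

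In RefSeq, 53 of the 55 members lay within the span of a host gene, 38 of them in protein-coding genes only and 12 in long non-coding genes only, and 21 lay in ribosomal protein genes. Snord118 and Terc had no host. To show what the intronic members share by position, the start regions of the 5 host genes of members that recur below are given from RefSeq (GRCm38.p6), each from 60 bases before to 30 bases after the annotated start, with the longest run of C or T that overlaps the 10 bases on either side of the start in capitals where it is at least 6 bases long. Snhg3 hosts Snora73a and Snora73b (chr4:132353657-132353746, minus strand), Rplp2 hosts Snora52 (chr7:141447591-141447680, plus strand), Ipo7 hosts Snora23 (chr7:110018255-110018344, plus strand), Snhg10 hosts Scarna13 (chr12:105032250-105032339, minus strand) and Snhg12 hosts Snora44 and Snora16a (chr4:132308618-132308707, plus strand).
Snhg3: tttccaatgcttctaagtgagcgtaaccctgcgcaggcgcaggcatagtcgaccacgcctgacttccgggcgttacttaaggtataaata
Rplp2: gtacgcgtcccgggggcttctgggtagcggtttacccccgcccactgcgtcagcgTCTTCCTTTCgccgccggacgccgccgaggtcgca
Ipo7: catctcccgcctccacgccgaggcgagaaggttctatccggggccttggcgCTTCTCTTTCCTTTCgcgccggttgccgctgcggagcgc
Snhg10: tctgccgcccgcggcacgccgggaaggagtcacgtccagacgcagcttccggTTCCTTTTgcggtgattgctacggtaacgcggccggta
Snhg12: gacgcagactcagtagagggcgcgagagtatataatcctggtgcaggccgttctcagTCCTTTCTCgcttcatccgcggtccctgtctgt
The run measured 15 bases in Ipo7, 10 in Rplp2, 9 in Snhg12 and 8 in Snhg10, and the longest in Snhg3 was 5 bases. Of the 46 host genes, 33 had an entry in the promoter table, and 17 of these (51.5%) held a run of 6 or more C or T on the transcribed strand at this place. Among all 27025 genes of the table, 29.1% did. Such a run is a description of the sequence and not evidence of how a gene is controlled.

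The first question was how the RNAs differed between the sorted cell types without drug. This was tested in one fit over all arrays, in which both cell types share one estimate of the spread. In untreated endothelial cells 25 of 55 members were lower than in untreated tumour cells and 0 were higher (45.5%, against 18.3% of all genes called in either direction; limma, adjusted p under 0.05). The differences were negative for 50 of the 55, with a median of -1.51 log2 units, whereas the median over all genes was 0.03. The H/ACA group held 14 of its 20 members among the lower ones (median -1.80) and the C/D group 9 of its 31 (median -0.64). Among 312 other short non-coding RNAs, mainly microRNA genes, 3 were higher and 9 lower, with a median of 0.03. Their mean level was 4.01 in untreated tumour and 3.97 in untreated endothelial cells, against 6.48 and 5.05 for the members. At so low a level a fall like that of the members may not show, so this list is no contrast to them.

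Snora52, an H/ACA RNA in the ribosomal protein gene Rplp2, read 10.31, 10.37 and 10.56 in untreated tumour cells and 6.22, 5.02 and 5.39 in untreated endothelial cells. Its difference of -4.87 ± 0.41 log2 units (SE; 29.2-fold lower, adjusted p = 2.46e-08) was the most negative of all 19938 genes. The groups were far apart, with over 4 log2 units between the highest endothelial and the lowest tumour array. Snora23, in the nuclear import receptor gene Ipo7, read 10.58, 10.05 and 10.80 against 7.21, 4.61 and 6.51, a difference of -4.37 ± 0.57 (adjusted p = 1.07e-05).

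Snord118, which is needed to process the large ribosomal subunit RNAs, read 9.68, 9.12 and 10.14 in untreated tumour cells and 6.31, 3.19 and 5.09 in untreated endothelial cells (-4.79 ± 0.95, adjusted p = 0.00104). Snora44, one of the RNAs of Snhg12, read 10.18, 10.36 and 10.22 against 5.70, 6.90 and 4.47 (-4.56 ± 0.93, adjusted p = 0.00137). In both RNAs the endothelial arrays ranged over more than 2 log2 units while the tumour arrays lay within about 1, yet the groups did not overlap. The next in size were Snord49b (-3.26 ± 0.56), Snord87 (-2.91 ± 0.48), Snora73b (-2.72 ± 0.38) and Snora31 (-2.57 ± 0.58), each with an adjusted p of 0.00327 or lower.

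Terc was lower in untreated endothelial cells by a log2 difference of -2.53 ± 0.53 (adjusted p = 0.00181). The 3 tumour arrays read 8.80, 8.81 and 8.51, and the endothelial ones 7.87, 5.37 and 5.30. The array at 7.87, replicate 1, was also the untreated endothelial array with the highest macrophage marker mean. Without that array and the others high in these markers, the number of called members was again 25. Scarna13 differed by -1.72 ± 0.36 (adjusted p = 0.00172) and Snora73a by -2.34 ± 0.41 (adjusted p = 0.000349).

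**Figure D1:**
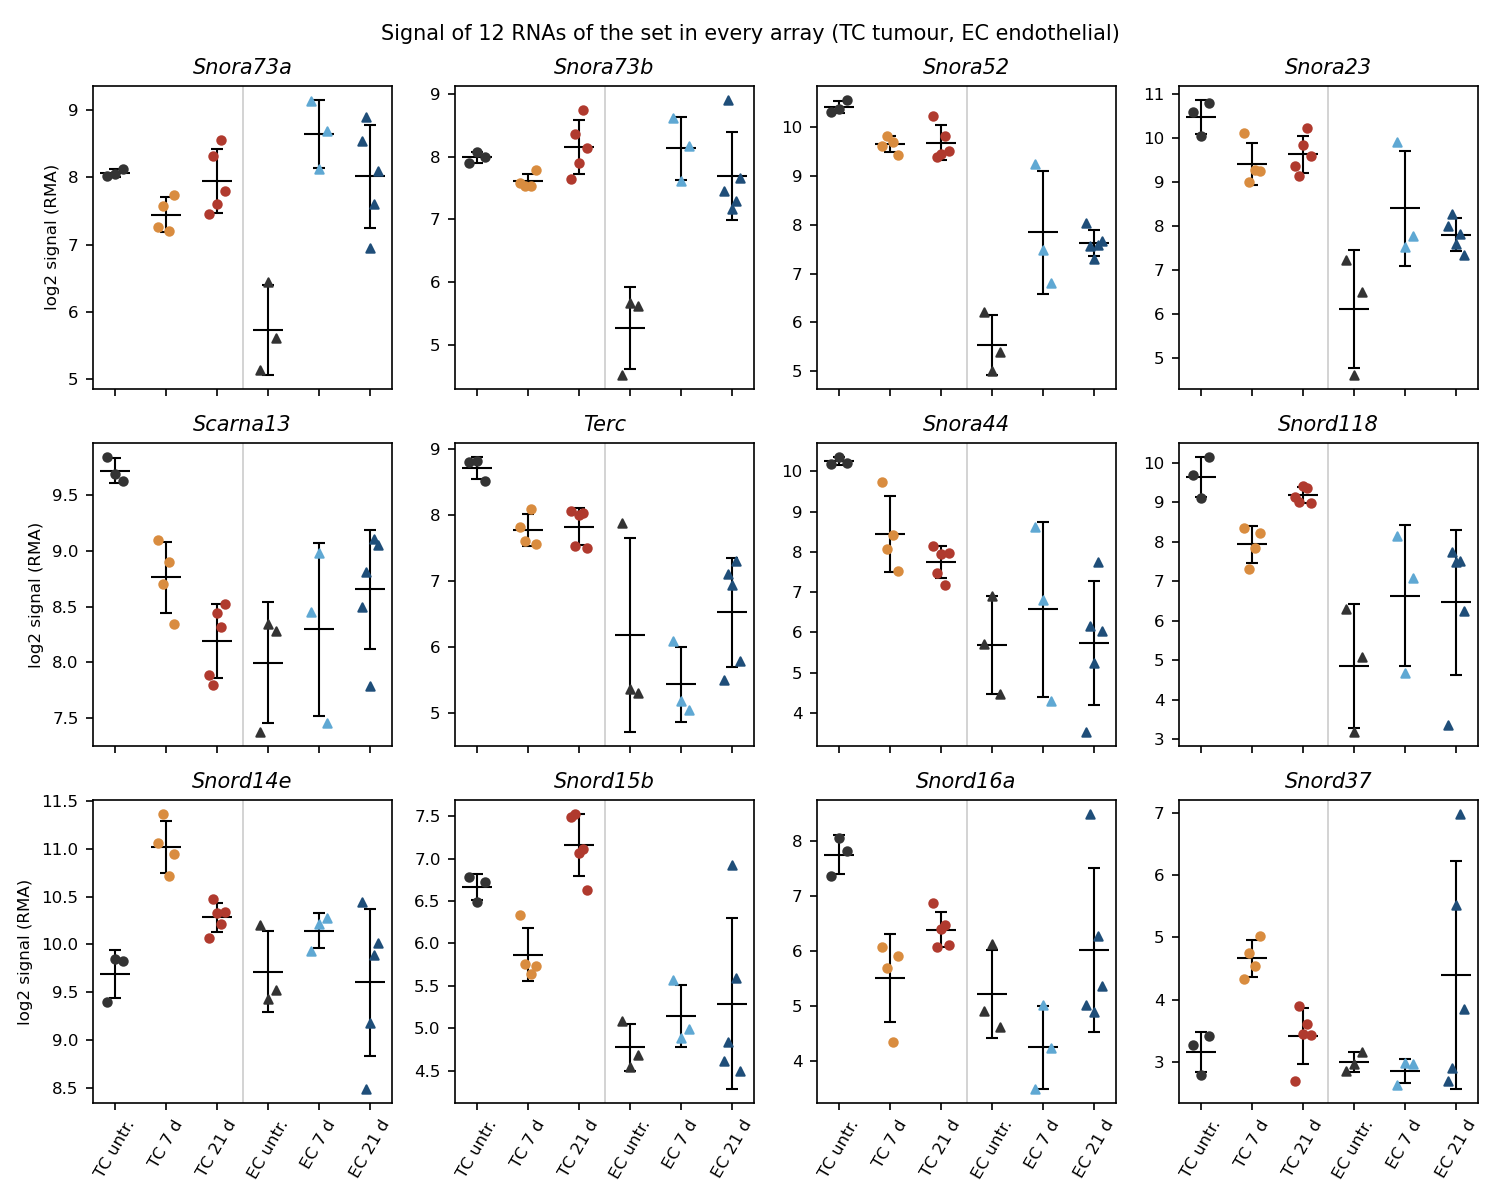
Log2 RMA signal of 12 members in each of the 23 arrays. Circles are tumour cell arrays, triangles endothelial ones, and the bar with whiskers is the group mean ± SD (3, 4 and 5 tumour arrays, 3, 3 and 5 endothelial arrays). Snora73a and Snora73b are low in untreated endothelial cells and at 6.95 or above in every treated endothelial array, and Scarna13 in tumour cells is lower in both treated groups than in the untreated one.

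Among the proteins that carry these RNAs, a few were lower in untreated endothelial cells, where 10.2% of all genes were lower. Of the 4 box C/D core proteins only Snu13, which binds the C/D motif, passed (-1.37 ± 0.18, adjusted p = 1.22e-05), and all 4 differences were negative. Of the 4 box H/ACA core proteins Dkc1, the pseudouridine synthase (-1.25 ± 0.33, adjusted p = 0.0113), and Gar1 (-0.71 ± 0.15, adjusted p = 0.00205) were lower, and again all 4 differences were negative. Among 13 assembly and trafficking factors 3 were lower (Znhit6, Nufip1 and Rpap3), among 8 Cajal body and telomerase genes 1 was (Parn), and among 7 genes of ribosomal RNA transcription 2 were (Polr1a and Rrn3). The protein subunit of telomerase, Tert, differed by -0.04 ± 0.11. None of these lists had a higher member. With lists this short, the shares are not set apart from that of all genes.

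In array signal, host genes mostly differed less than the RNAs in their introns. For the 27 members with a single measured host, the median difference between untreated endothelial and tumour cells was -1.54 for the member and -0.14 for the host. Among these pairs 13 members and 5 hosts were called lower, where 10.2% of all genes were. With so few pairs, the 5 hosts are not set apart from that share. In 4 pairs both were called (Snora33 with Rps12, Snora41 with Eef1b2, Snora70 with Rpl10 and Snord53 with Wdr43). In the other pair with a called host, Kansl2 differed by -1.31 ± 0.19 (adjusted p = 5.69e-05) and its member Snora2b by -0.42. Rplp2 differed by -0.14 ± 0.16 where Snora52 differed by -4.87, and Ipo7 by -0.57 ± 0.27 where Snora23 differed by -4.37. Snora31 and its host Tpt1 gave -2.57 and -0.01, and Snord16a and its host Rpl4 gave -2.53 and -0.09. Host exons and the member are read by different probes, so only the differences are set side by side. Measured hosts were also brighter, with a mean of 9.92 in untreated tumour cells against 6.48 for the members. Tpt1 read 12.24 to 12.35 there, where the highest value of the data was 14.06. Rplp2 (7.65 to 7.98) and Ipo7 (7.80 to 8.01) read lower. Whether differences are understated at bright signals was not tested. RNA still holding the intron reaches the member's probes too, and the array does not separate it from the processed form. Snhg3, Snhg10 and Snhg12 had no single-gene cluster and were not analysed here.

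**Figure D2:**
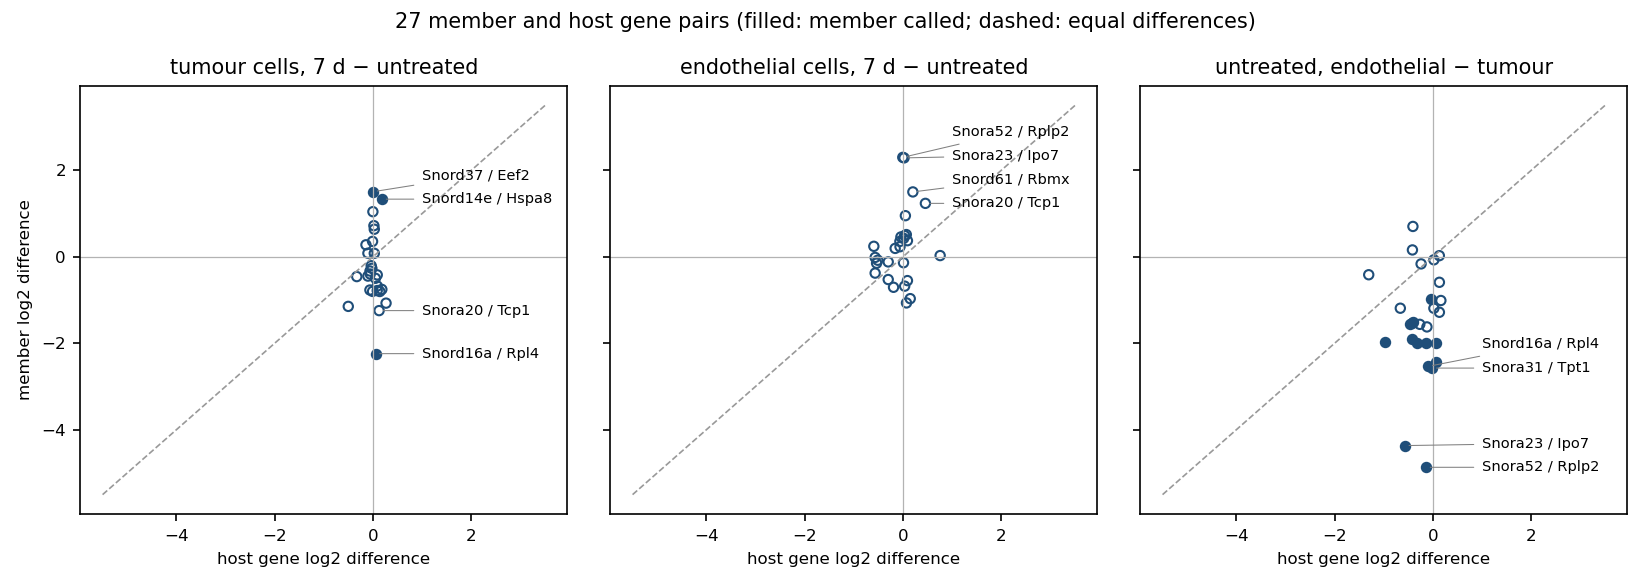
Log2 difference of 27 members against that of the host gene whose span contains them, in short-term against untreated tumour cells (left), short-term against untreated endothelial cells (middle) and untreated endothelial against tumour cells (right). Filled points are members called at an adjusted p under 0.05, the dashed line marks equal differences, and the vertical axis carries the wider spread (median absolute difference 1.54 for members and 0.16 for hosts in the right panel), although hosts such as Kansl2 (-1.31) also lie away from 0.

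Between short-term and untreated tumour cells, single members differed in both directions. Drug and tumour size or growth time cannot be told apart in this comparison. Of the 55 members, 5 were called between short-term and untreated tumour cells, 2 higher and 3 lower (9.09%, against 0.507% of all genes). The median of all members was -0.38 and that of all genes -0.01, and 37 of the 55 lay outside the range from the 5th to the 95th percentile of all genes. In the other treatment comparisons 22 to 30 lay outside it, with 23 in endothelial cells at 7 days, where no gene passed. Members also varied more between replicates (median SD 0.43 against 0.16 for all genes in tumour cells). Their wider scatter does not by itself show an effect of treatment. The H/ACA members had a median of -0.46 with 16 of 20 negative, and none was called. The C/D members had a median of -0.07, with 2 higher and 2 lower.

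Snord14e, a C/D RNA in an intron of the heat shock protein gene Hspa8, read 9.39, 9.85 and 9.82 in untreated, 11.06, 11.37, 10.72 and 10.95 in short-term, and 10.06, 10.47, 10.33, 10.22 and 10.34 in long-term tumour cells. It was higher by 1.33 ± 0.16 at 7 days than in untreated cells (2.52-fold, adjusted p = 0.00476). At 21 days it was lower than at 7 days (-0.74 ± 0.14, adjusted p = 0.0254). The long-term arrays lay between the other groups without overlap, and their difference from untreated, 0.60 ± 0.15, did not pass (adjusted p = 0.196). Hspa8 itself differed by 0.19 ± 0.06 at 7 days (adjusted p = 0.261).

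Snord37, in the elongation factor gene Eef2, followed the same course. It read 3.26, 2.79 and 3.41 in untreated, 4.33, 4.76, 4.54 and 5.02 in short-term, and 2.70, 3.89, 3.44, 3.61 and 3.44 in long-term tumour cells. It was higher by 1.51 ± 0.25 at 7 days than in untreated cells (adjusted p = 0.0289). At 21 days it was lower than at 7 days (-1.25 ± 0.22, adjusted p = 0.0204). All short-term arrays lay above all other tumour cell arrays. Its signal was low, below the 30th percentile of all genes by its mean, so a filter on dim genes removed it, and no background call was at hand to show that the untreated level was above background. Eef2 differed by 0.01 ± 0.06 at 7 days.

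Snord16a, Snord118 and Terc were lower at 7 days than in untreated tumour cells. Snord16a, in the ribosomal protein gene Rpl4, read 7.35, 8.05 and 7.82 in untreated and 6.07, 5.69, 4.34 and 5.91 in short-term tumour cells (-2.24 ± 0.36, adjusted p = 0.0244). Its long-term values, 6.87, 6.07, 6.39, 6.47 and 6.11, were below every untreated array too. Snord118 read 8.36, 7.32, 7.84 and 8.23 at 7 days, below the untreated arrays given above (-1.71 ± 0.26, adjusted p = 0.0211). At 21 days it read 9.13, 9.00, 9.42, 9.37 and 8.99, which was higher than at 7 days by 1.24 ± 0.23 (adjusted p = 0.0242).

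Terc read 7.82, 7.60, 8.09 and 7.56 at 7 days and between 7.50 and 8.05 in the 5 arrays at 21 days, with all 9 treated arrays below the 3 untreated ones. It differed from untreated by -0.94 ± 0.17 at 7 days (adjusted p = 0.0404) and by -0.89 ± 0.16 at 21 days (adjusted p = 0.0745). The difference between 21 and 7 days was 0.06 ± 0.15, with a 95% confidence interval from -0.27 to 0.38. Of the proteins that bind or deliver it, Dkc1 differed by 0.42 ± 0.17, Wrap53 by 0.04 ± 0.18 and Tert by 0.02 ± 0.10 at 7 days, and none of the 3 was called.

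Among members that did not pass at 7 days, Scarna13 differed by -0.96 ± 0.20 (adjusted p = 0.0672), Snora52 by -0.77 ± 0.18 (adjusted p = 0.0992) and Snora33, in the ribosomal protein gene Rps12, by 1.04 ± 0.24 (adjusted p = 0.0857). Snora73a and Snora73b differed by -0.62 ± 0.24 and -0.38 ± 0.20. In all 5 RNAs the short-term and untreated arrays did not overlap. The share of all genes without overlap was not counted, so this adds no support to differences that did not pass. The means over 12 immediate early genes, which respond to growth signals and to handling of cells, were 9.00 to 9.50 in untreated and 9.87 to 10.26 in short-term tumour cells, and their part in these differences was not tested. The count of 5 was 0 in one fit over all 23 arrays, in which tumour and endothelial cells share one estimate of the spread. Left out one at a time, untreated replicates 1, 2 and 3 gave 3, 2 and 2 members, and short-term replicates 2 and 4 gave 2 and 3. Over the alternatives Snord14e kept its call in 18 of 19, Snord118 in 17 of 19, Snord16a in 14 of 19, Terc in 9 of 19 and Snord37 in 9 of 18, each with its direction in all of them.

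After 21 days, 2 of 55 members differed from untreated tumour cells, both lower (3.64%, against 0.0903% of all genes). The median over members was -0.06, and that over all genes -0.01. Scarna13, which directs modification of a spliceosomal RNA, read 9.84, 9.69 and 9.63 in untreated tumour cells, 9.10, 8.70, 8.90 and 8.35 at 7 days and 7.89, 7.80, 8.45, 8.32 and 8.52 at 21 days. The fall at 21 days was -1.53 ± 0.19 (2.88-fold, adjusted p = 0.0174). The long-term group was lower than the short-term one by a further -0.57 ± 0.18, which did not pass (adjusted p = 0.178), and these groups overlapped.

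Snora44 read 9.75, 8.08, 8.42 and 7.52 at 7 days and 8.15, 7.49, 7.96, 7.18 and 7.98 at 21 days, all below the untreated arrays given above. Its difference at 21 days, -2.50 ± 0.39 (5.67-fold lower, adjusted p = 0.0397), was the most negative of all genes in that comparison. The call held in 6 of 19 alternative analyses, with adjusted p from 0.00371 to 0.834. Snora52 differed by -0.73 ± 0.17 at 21 days (adjusted p = 0.171) with no overlap, and Snora73a and Snora73b by -0.12 ± 0.23 and 0.17 ± 0.19 with overlap. On the positive side the smallest p belonged to Snord14e, Snord15b (0.50 ± 0.20) and Snora31 (0.75 ± 0.33), and none of the 3 passed. The comparisons at 7 and 21 days share the 3 untreated arrays. The count of 2 was 0 in one fit over all arrays. It was 0 without untreated replicate 2 or 3, and 1 without untreated replicate 1, short-term replicate 2 or any of long-term replicates 2, 3, 4 and 5.

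Between 21 and 7 days of treatment 4 of 55 members differed in tumour cells, 2 higher and 2 lower (7.27%, against 1.22% of all genes). Besides Snord118, Snord37 and Snord14e this was Snord15b, in the ribosomal protein gene Rps3. Snord15b read 6.78, 6.49 and 6.73 in untreated, 6.33, 5.75, 5.64 and 5.74 in short-term and 7.49, 7.52, 7.06, 7.12 and 6.63 in long-term tumour cells, a difference of 1.30 ± 0.19 between the treated groups (2.46-fold, adjusted p = 0.00836). Every long-term array lay above every short-term one, and the lowest long-term array lay among the untreated ones. Rps3 differed by -0.01 ± 0.06 in the same comparison. The count of 4 was 0 in one fit over all arrays, 1 without short-term replicate 2 or long-term replicate 3, and 2 without short-term replicate 3 or 4 or long-term replicate 4.

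**Figure D3:**
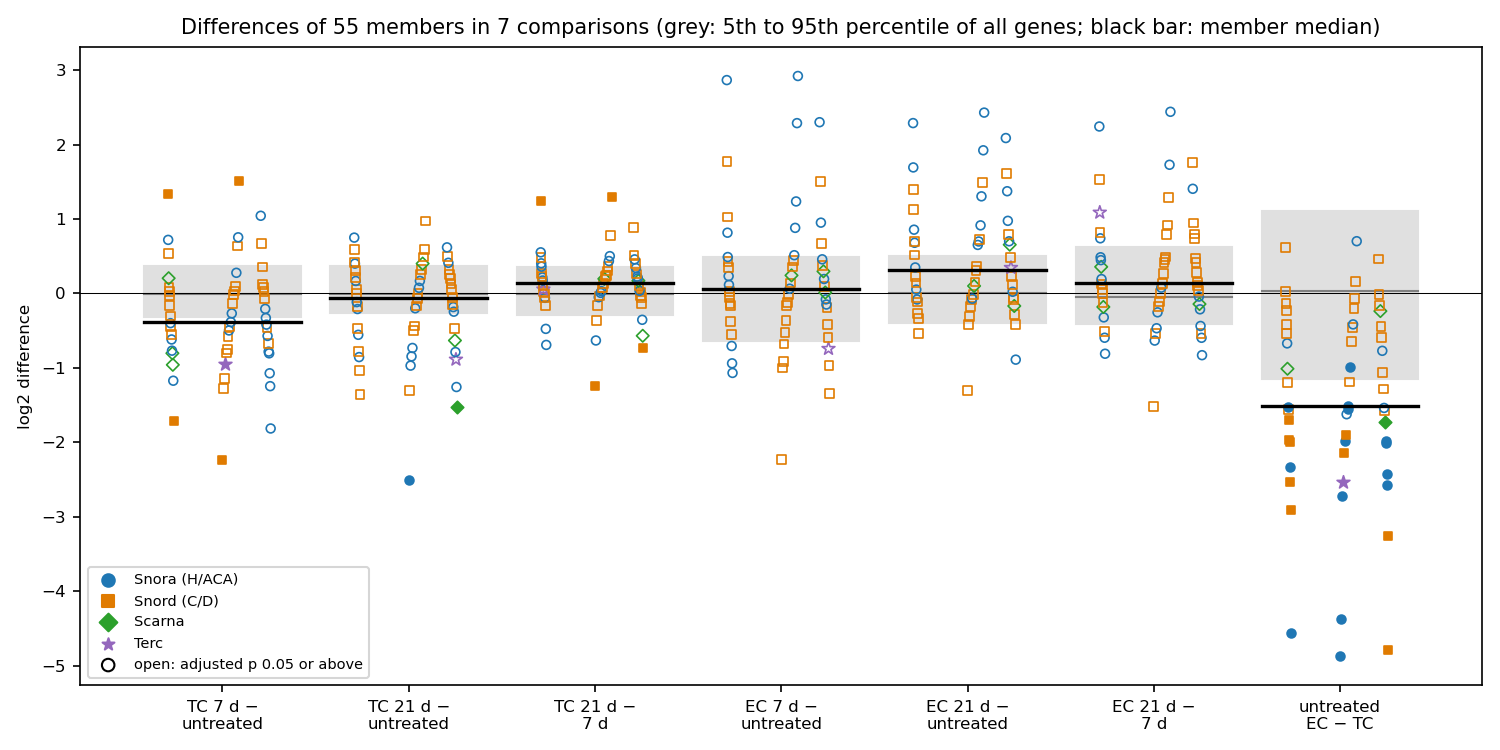
Log2 differences of the 55 members in 7 comparisons, by class of RNA. Grey boxes span the 5th to the 95th percentile of all 19938 genes with the median as a grey line, black bars are member medians, and filled points passed at an adjusted p under 0.05. Members scatter beyond the grey boxes in every comparison, and their median is clearly below 0 in the untreated comparison of cell types (-1.51). They also varied more between replicates than all genes did.

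In endothelial cells no gene passed at 7 or 21 days of treatment, and so 0 of 55 members did (0% of all genes; limma). At an unadjusted p under 0.05 there were 5 of 55 members at 7 days (9.09%, against 8.17% of all genes), 8 at 21 days (14.5%, against 4.18%) and 6 between 21 and 7 days (10.9%, against 9.40%). The members with the smallest p were Snora73a and Snora73b, which lie in Snhg3 and act in the processing of the small ribosomal subunit RNA. They are close copies, so their probes may share targets and they do not count as independent.

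Snora73a read 5.12, 6.45 and 5.61 in untreated, 9.13, 8.12 and 8.69 in short-term, and 8.54, 8.89, 6.95, 7.60 and 8.09 in long-term endothelial cells. Its differences from untreated were 2.92 ± 0.50 at 7 days (7.57-fold; 95% confidence interval 1.80 to 4.04; adjusted p = 0.262) and 2.29 ± 0.45 at 21 days (adjusted p = 0.521). Snora73b read 4.52, 5.67 and 5.62 in untreated, 8.61, 7.62 and 8.17 in short-term and 7.46, 8.91, 7.17, 7.29 and 7.66 in long-term cells, with differences of 2.87 ± 0.47 (adjusted p = 0.244) and 2.43 ± 0.42 (adjusted p = 0.33). For both RNAs all 8 treated arrays lay above all 3 untreated ones. The value of Snora73a at 7 days and that of Snora73b at 21 days were the largest positive differences of all genes in those comparisons, and neither passed the adjustment.

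Snora52 read 6.22, 5.02 and 5.39 in untreated, 9.24, 7.48 and 6.81 in short-term and 8.04, 7.57, 7.30, 7.58 and 7.66 in long-term endothelial cells. It differed by 2.30 ± 0.53 at 7 days (adjusted p = 0.381) and by 2.09 ± 0.47 at 21 days (adjusted p = 0.705), and again no treated array reached down to the untreated ones. Snora23 read 9.90, 7.52 and 7.77 at 7 days and from 7.33 to 8.28, with a median of 7.82, at 21 days, above the untreated arrays given above. The hosts Rplp2 and Ipo7 differed by -0.003 ± 0.19 and 0.02 ± 0.37 at 7 days. In the other direction Snord33, in the ribosomal protein gene Rpl13a, read 6.83, 6.67 and 7.66 in untreated and 5.51, 3.82 and 5.15 in short-term cells (-2.23 ± 0.55, adjusted p = 0.41). At 21 days it differed by -1.31 ± 0.49, with overlap. Snord38a (-1.34 ± 0.82) and Snord82 (-0.68 ± 0.41) came next among the negative values at 7 days, and Snora30 (-0.89 ± 0.55) and Snord35a (-0.27 ± 0.17) at 21 days, each with overlap. Snord38a read 6.74 in untreated replicate 1 and 2.91 and 4.42 in the others, and without that replicate its difference was -0.31.

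Over the H/ACA members the difference at 21 days was positive for 17 of 20 with a median of 0.78, and over the C/D members for 16 of 31 with a median of 0.12. The H/ACA core proteins had 4 of 4 positive values at 21 days (median 0.49) and 1 of 4 at 7 days (median -0.43), and none was called. Scarna13 differed by 0.30 ± 0.45 and 0.66 ± 0.40, and Terc by -0.74 ± 0.71 and 0.35 ± 0.64, at 7 and 21 days. The sign of Terc at 7 days and of Scarna13 at 7 days turned without untreated replicate 1. Between 21 and 7 days Snora31, in Tpt1, gave 2.44 ± 0.63 and Snora7a, in Rpl32, 2.24 ± 0.57, both with adjusted p = 0.389. Snora31 read 4.18, 5.18 and 3.85 at 7 days and 7.56, 5.21, 7.42, 6.39 and 7.62 at 21 days, while Snora7a read 6.99, 4.75 and 4.58 against 7.92, 8.33, 8.06, 7.52 and 6.59, with overlap. Snord87 followed with 1.29 ± 0.53, and the negative values of smallest p were those of Snora62 (-0.59 ± 0.22, no overlap), Snord61 (-1.52 ± 0.86) and Snora30 (-0.81 ± 0.55). Snord61 rested on short-term replicate 2, which read 7.42 where the other endothelial arrays read 2.59 to 3.05, and its difference was 0.0094 without that array.

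Other gene lists also had different levels across the endothelial groups, none with a called member in a treatment comparison. The mean over 12 immediate early genes was 8.15 to 8.65 in untreated, 9.20 to 9.47 in short-term and 8.99 to 9.79 in long-term endothelial cells. Macrophage markers ranged from 5.56 to 7.77 in untreated, 4.70 to 5.16 in short-term and 5.14 to 7.85 in long-term cells, and 7 pericyte markers from 5.18 to 5.78, 5.78 to 6.41 and 5.07 to 5.63. The mean over 9 epithelial markers ranged from 5.67 to 6.33, 5.90 to 6.39 and 5.54 to 7.86, with 7.86 in long-term replicate 4. The part of each in the differences of the members was not tested. One fit over all 23 arrays called 3 members at 7 days and the same 3 at 21 days (Snora73a, Snora73b and Snora52, adjusted p from 0.00269 to 0.0251), and 2 between 21 and 7 days. It called 0.532%, 0.171% and 1.31% of all genes in these comparisons.

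The difference from untreated cells, called the effect here, was next compared between the cell types in one fit over all arrays. At 7 days it holds tumour size or growth time as well as drug. The fit used one spread for both cell types, though the median SD over all genes was 0.16 in tumour and 0.26 in endothelial cells. No fit with a separate spread per cell type was made for these comparisons. The short-term effect was higher in endothelial than in tumour cells for 3 of 55 members and lower for none (5.45%, against 0.0953% of all genes). These were Snora73a (3.54 ± 0.56, adjusted p = 0.0224), Snora73b (3.25 ± 0.52, adjusted p = 0.0224) and Snora52 (3.07 ± 0.56, adjusted p = 0.0383). For Snora73a this combined a difference of 2.92 in endothelial cells with one of -0.62 in tumour cells, and it was the largest positive value of all genes. For the long-term effect 0 of 55 members and 0 of all genes (0%) passed (limma), and 1 member did without endothelial untreated replicate 1 or short-term replicate 1. The values for Snora52 (2.82 ± 0.52), Snora73a (2.40 ± 0.52), Snora73b (2.26 ± 0.48) and Scarna13 (2.18 ± 0.46) each had an adjusted p of 0.207. For Snora52 that combined 2.09 in endothelial with -0.73 in tumour cells. At an unadjusted p under 0.05 there were 11 of 20 H/ACA and 2 of 31 C/D members, against 5.33% of all genes.

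These comparisons share their untreated arrays with the comparison of the untreated cell types. A low reading in the 3 untreated endothelial arrays enters the cell type difference with a negative sign and the treatment effect with a positive one, so the results are not independent of each other. Without tumour cell untreated replicate 2 or 3 the count of 3 was 0. Over 30 alternatives Snora73a and Snora73b each kept the call in 27, and Snora52 kept it in 17, with adjusted p from 0.00618 to 0.206. It was 3 without the 3 endothelial arrays highest in macrophage markers.

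**Figure D4:**
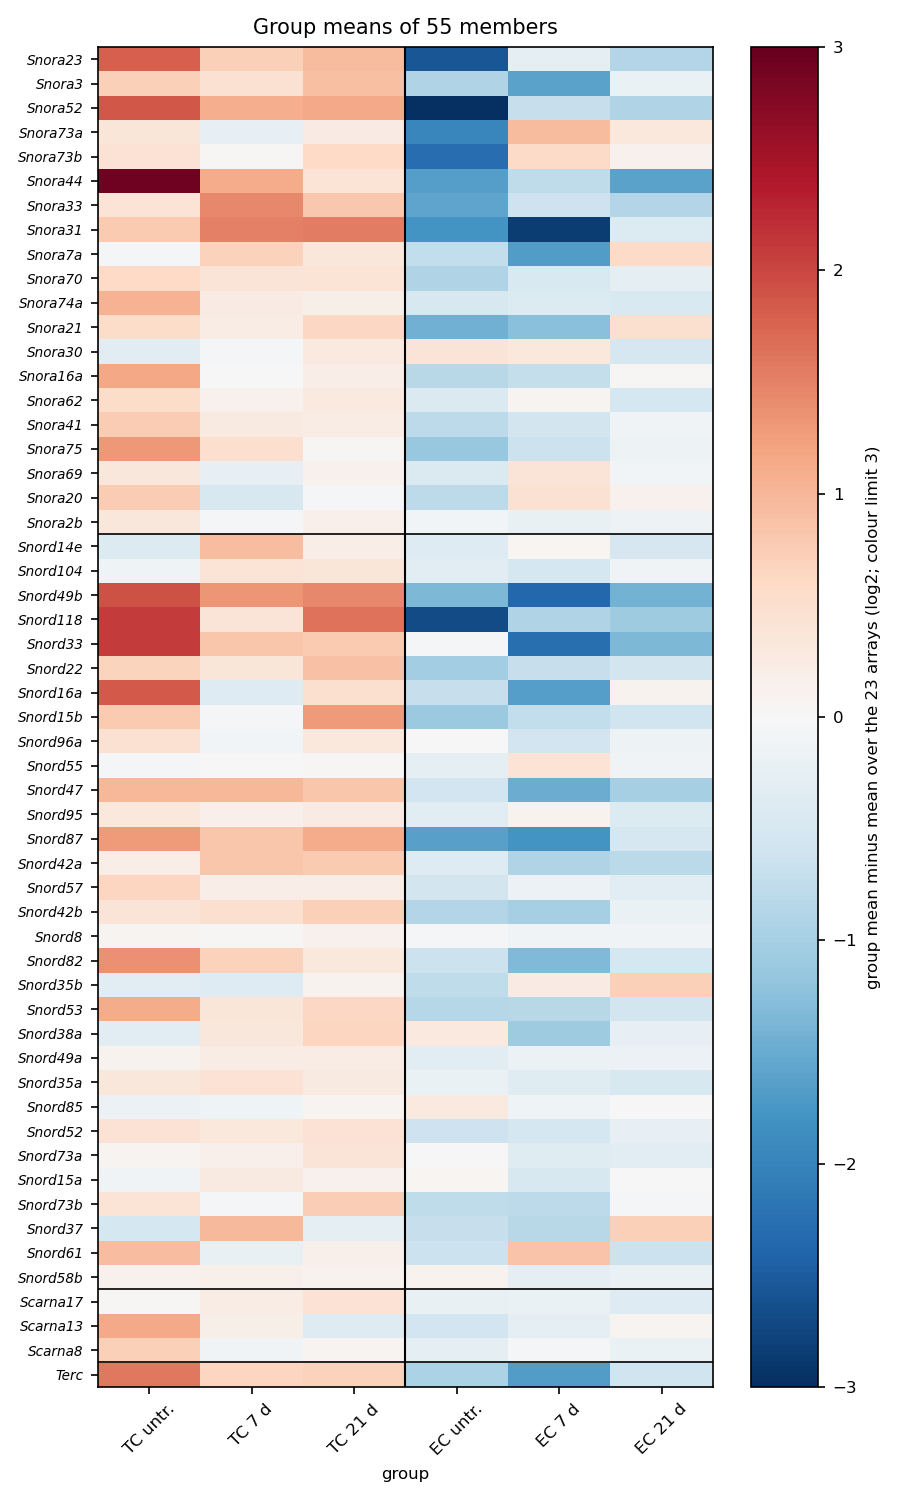
Mean of each member in the 6 groups, minus its mean over the 23 arrays (log2; red above, blue below, colours limited to 3 either way). Rows are grouped as Snora, Snord, Scarna and Terc. For 50 of the 55 the untreated endothelial column is lower than the untreated tumour cell column. Snora73a and Snora73b are below their mean over the arrays in untreated endothelial cells and above it in treated ones. At 21 days they are only slightly above it (8.02 against 7.69 and 7.70 against 7.56), so the colour is faint there.

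Members varied more between replicates than other genes did. The median SD within groups was 0.43 over members and 0.16 over all genes in tumour cells, and 0.72 against 0.26 in endothelial cells. The measured host genes had medians of 0.11 and 0.24. Some members were steady: Snord8, in Chd8, lay between 4.23 and 4.92 in all 23 arrays. Others rested on single arrays, such as Scarna8, in Haus6, which read 6.16 in untreated tumour replicate 2 and between 3.19 and 4.49 in every other array. Scarna17 lay between 8.63 and 11.83, and Snord104 between 8.77 and 11.30, with overlap of the cell types. Snora3, in Rpl27a, read 8.43 to 9.67 in tumour cells and 5.02 to 9.16 in endothelial cells. At the low end of the scale, Snora2b lay between 3.16 and 4.11 and Snord58b between 2.83 and 4.39.

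In some comparisons the signed difference went with the length of the RNA. Members were chosen by symbol, but with earlier results known. Snora73a and Snora73b (205 bases each), Snora52 (134) and Scarna13 (275), named throughout, are all among the longer ones. The description by length and its cut at 130 bases were not part of the planned comparisons. Of the 12 members of at least 130 bases in RefSeq, 11 were lower in untreated endothelial than tumour cells (median -2.17), and of the 43 shorter ones 14 were (median -1.06). Over the 55 members Spearman's rho between length and difference was -0.43 in that comparison, 0.42 for long-term against untreated endothelial cells and 0.49 for the cell type difference in the long-term effect. It was 0.09 and -0.10 between 21 and 7 days in tumour and endothelial cells, and between -0.38 and 0.47 in the other 4 comparisons. The C/D members are mostly shorter than the H/ACA ones, so length and class go together here. Brightness went with the untreated difference as well, with rho -0.47 against the mean level. Members share arrays, and several share a host gene, so these coefficients describe the set and carry no test. The labels name column-based extraction and amplification kits for total RNA, and the part of length in the differences was not tested.

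**Figure D5:**
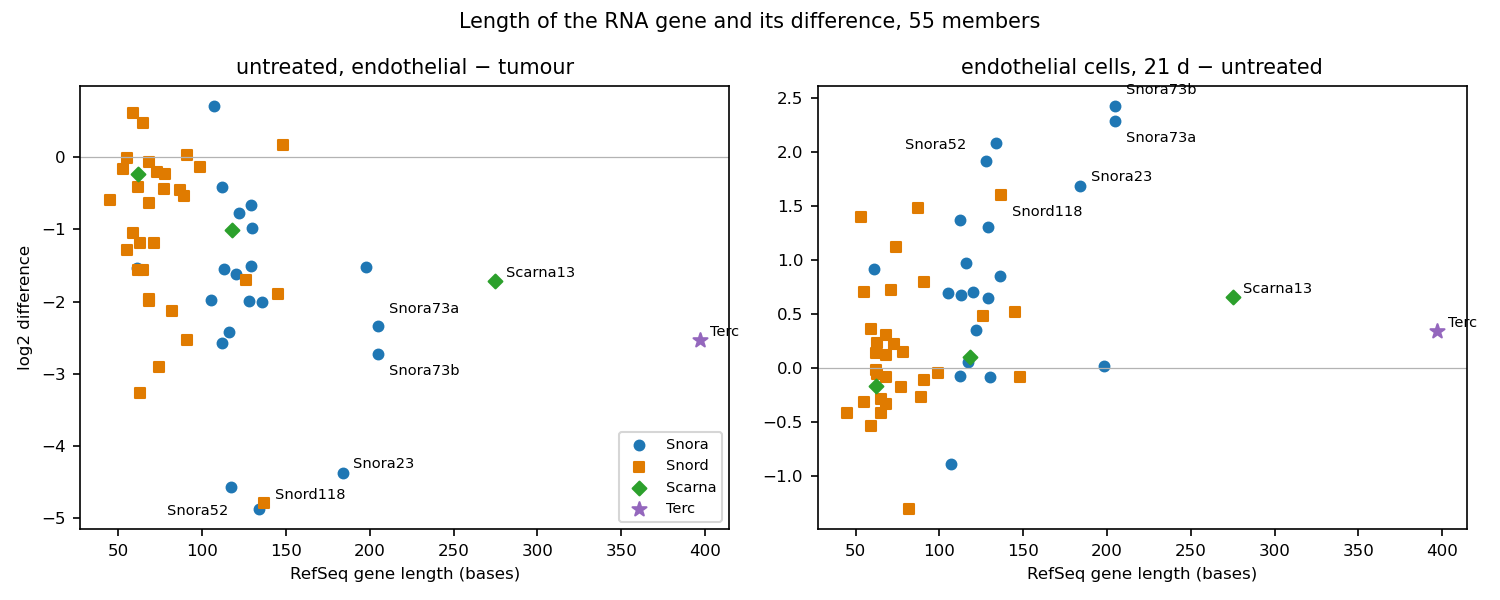
Length of each member's RefSeq gene in bases (horizontal) against its log2 difference (vertical), for untreated endothelial against tumour cells (left) and long-term against untreated endothelial cells (right). Symbols mark the class of RNA, and members of at least 130 bases lie mostly low on the left (median -2.17) and high on the right (median 0.76).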

How the data were processed

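Expression was measured on 23 Affymetrix arrays, 12 of sorted tumour cells and 11 of sorted endothelial cells. The deposited values are on a log2 scale and came from RMA in the R package oligo, per the submitters' processing notes (versions: not given in the sources used here). No raw intensities or background calls were used here. Of 35556 probe clusters, 21789 named 1 gene in the platform annotation, 1621 named several and 12146 were not listed. The cluster with the highest mean stood for each of 19938 genes. Differences were tested with limma 3.58.1 (lmFit, eBayes) in R 4.3.3, with Benjamini-Hochberg adjustment over all genes and a threshold of 0.05, separately in tumour and endothelial arrays, and over all arrays between cell types. Values after ± are standard errors of limma coefficients. The number of arrays and their spread limit the precision. Simulated data held 200 changed genes drawn from all genes. A 2-fold change was recovered for 93% of changed genes in long-term against untreated tumour cells. It was recovered for 60% in the same comparison of endothelial cells, with the same numbers of arrays, and for 53% in short-term against untreated endothelial cells. Members varied more within groups than all genes (median SD 0.43 against 0.16 in tumour and 0.72 against 0.26 in endothelial cells). Recovery for the members was not tested, and these rates do not describe it.

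Hosts are RefSeq genes whose span contains the member, with strand not checked. The members and lists were chosen with earlier results of these data known. Named are Snora73a, Snora73b, Snora52, Scarna13 and Terc throughout, members called in a treatment comparison or an effect difference, the 3 per direction with the smallest p in each treatment comparison, the 8 largest differences between untreated cell types, and the 10 members with the highest and 5 with the lowest mean. Snora23 in treated endothelial cells and Snord8 were added after their values were seen. Alternatives were one fit over all arrays, a filter on dim genes (30th percentile), median centring, quantile normalization and the mean of clusters. Array weights, a replicate block and leaving out each array were the others. The block was the replicate number within a cell type, and treatment group with replicate number between cell types. One was added after seeing the data: leaving out the 3 endothelial arrays highest in macrophage markers.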

Additional observations from a re-analysis of the deposited data

Results flagged for a closer look

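Only members named by the criteria listed above were checked for single arrays far from the rest, in groups with 4 or 5 arrays. Those members were chosen partly by their differences and share arrays, so a chance rate is only a rough guide. In 10 of 90 values 1 array stood far from the rest, where chance alone gives about 1 in 20. Tumour cells at 21 days held 3 of them: Snora31 read 9.94 in replicate 4 against 8.32 to 8.72 in the others, Snord38a read 7.50 in replicate 4 against 4.27 to 4.74, and Snord104 read 11.30 in replicate 2 against 9.99 to 10.26. Tumour cells at 7 days held another 3: Snord15b read 6.33 in replicate 1 (others 5.64 to 5.75), Snord58b 4.39 in replicate 2 (others 3.22 to 3.40) and Snord61 4.64 in replicate 4 (others 2.71 to 2.92). Endothelial cells at 21 days held 4. Snora73b read 8.91 and Snord33 7.06 in replicate 2, where the others lay at 7.17 to 7.66 and 5.14 to 5.65. Snora33 read 4.51 in replicate 1 against 6.48 to 7.21, and Snord58b 4.10 in replicate 4 against 2.92 to 3.14.

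The short-term effect of treatment differed between the cell types for Snora73a (3.54 log2 units, endothelial minus tumour), Snora73b (3.25) and Snora52 (3.07), by the test of the difference itself in limma.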

How the results depend on the processing

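Counts of called members stayed within 1.5 times the reported ones under the dim-gene filter, median centring, quantile normalization and the mean of clusters in all 9 comparisons. In one fit over all 23 arrays the count was 0 for each of the 3 tumour cell comparisons, and 3, 3 and 2 for endothelial cells at 7 days, at 21 days and between them. Array weights gave 1 member for long-term against untreated tumour cells and 1 for the cell type difference in the long-term effect. Leaving out single arrays gave 2 to 6 members (tumour cells, 7 days), 0 to 2 (21 days), 1 to 4 (21 against 7 days), 0 to 0 in each endothelial comparison, 20 to 27 (untreated cell types), 0 to 4 (difference in the short-term effect) and 0 to 1 (difference in the long-term effect).

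Same-numbered arrays did not deviate together: within a cell type the correlations of 19 pairs ran from -0.149 to 0.112, and between cell types those of 11 pairs from -0.11 to 0.0638. The numbers were therefore not taken as pairs. With the replicate number as a block within a cell type, the counts in tumour cells were 2 at 7 days and 0 at 21 days. Between cell types the block joined the same-numbered tumour and endothelial arrays of a treatment group. It gave a count of 0 for the difference in the short-term effect. The adjusted p was then 0.157 for Snora73a, 0.104 for Snora73b and 0.206 for Snora52 (limma). No other count moved by over 1.5 times.

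Signs turned only for differences that were not called. Array weights gave -0.012 for Snora52 in tumour cells and 0.085 in endothelial cells, both 21 against 7 days. Without the 3 endothelial arrays high in macrophage markers, Scarna13 gave -0.014 and Terc 0.104 in endothelial cells at 7 days. Leaving out single arrays gave these ranges. In tumour cells Snora73a ran from -0.27 to 0.0049 at 21 days, and between 21 and 7 days Snora52 ran from -0.10 to 0.11 and Terc from -0.013 to 0.16. In endothelial cells at 7 days Scarna13 ran from -0.046 to 0.72 and Terc from -1.18 to 0.104, and at 21 days Terc ran from -0.094 to 1.19. Between 21 and 7 days Snora52 ran from -0.73 to 0.49, Scarna13 from -0.062 to 0.70 and Snord61 from -2.32 to 0.0094. The cell type difference in the short-term effect of Terc ran from -0.24 to 1.05. The cause was not tested. The wider spread of endothelial arrays limits what could be detected there.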
